A study of Mus musculus with 22 samples.

Results

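The 10 genes described here, Pecam1, Kdr, Cdh5, Tek, Tie1, Lyve1, Stab2, Eng, Emcn and Esam, are textbook markers of endothelial cells, named by their known role, and the list has no threshold on a measured value. They are 10 of the 37991 genes in the RNA-seq count files and 10 of the 22359 protein-coding genes with an annotated transcription start site (TSS) on the assembled chromosomes. Each had reads in every RNA-seq library and each passed the filter on low counts. Which cell types of the whole liver these reads came from was not tested. Blood cells or other cells may contribute, so the RNA values cannot be assigned to endothelial cells alone. The study asked how loss of Rlf, a zinc finger protein found in a mutagenesis screen for epigenetic modifiers, alters DNA methylation and transcription. Wild-type mice (Rlf +/+) were compared with mice homozygous for the ENU-induced null allele (Rlf MommeD28/MommeD28, called mutants below). The labels give FVB for all of them. Per the study's methods, the lines were kept on the Line3 FVB/NJ background and every mouse was homozygous for a multi-copy GFP array driven by human alpha-globin promoter and HS-40 enhancer sequences, so both genotypes share it.

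Whole genome bisulphite sequencing (WGBS), which reads methylated cytosines as unconverted, covered 2 wild-type and 2 mutant samples in each of 3 datasets: male E10.5 whole embryos, E14.5 fetal livers (littermates, replicate 1 male and replicate 2 female in each genotype) and female E18.5 fetal livers. RNA-seq covered 3 wild-type and 3 mutant E14.5 livers, of which replicates 1 and 2 were male and replicate 3 female. Between E10.5 embryo and E14.5 liver, stage, tissue and depth differ together, as does sex for E14.5 replicate 2, and these cannot be told apart. Between E14.5 and E18.5 liver the same holds for stage, depth, sex and cell make-up. E14.5 replicate 1 was male and all E18.5 livers were female. Per the study, erythroblasts outnumber hepatoblasts in E14.5 liver, whereas hepatoblasts dominate at E18.5. RNA-seq libraries held 12928313 to 14621004 counted reads and WGBS libraries 319866478 to 710952704 reads over CpGs. At the TSS windows of the 10 genes this gave 15.3 to 36.1 reads per CpG in E10.5, 29.9 to 54.6 in E14.5 and 16.7 to 31.6 in E18.5 libraries. Methylation over all CpGs was 70.7% and 72.0% in wild-type and 73.3% and 74.0% in mutant E10.5 embryos, 56.4% and 58.5% against 60.3% and 59.2% in E14.5 livers, and 61.4% and 61.7% against 65.5% and 61.4% in E18.5 livers. Both mutants thus lay above both wild types at E10.5 and E14.5, and at E18.5 mutant replicate 1 stood apart from the other libraries. This order was not tested. The study used another measure, averages in bins along the genome, and reports no change of the global level without Rlf. Rlf itself, the mutated gene, had 70.0, 72.3 and 68.9 CPM (read counts scaled to library size) in the wild types and 76.3, 79.8 and 67.6 in the mutants. Its RNA level therefore does not separate the genotypes and is no check of the labels.

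In the fetal liver, blood flows through sinusoids, wide capillaries lined by a porous endothelium that takes up macromolecules and surrounds islands of blood-forming cells. Endothelial cells receive VEGF through Kdr and angiopoietins through Tek, hold together through junction proteins such as Cdh5 and Pecam1, and in sinusoids carry scavenger receptors such as Stab2. Methylation of CpG-poor promoters and of enhancers tends to be lower in cell types that use them, whereas CpG islands are commonly unmethylated in every tissue. Here whole organs and embryos were sequenced, so each value averages over all cell types, and fewer cells of a type and less RNA per cell cannot be told apart.

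The promoters of the 10 genes were not of one kind. Kdr started in a CpG island: its window of 1 kb on either side of the start held 99 CpGs in the reference, at 0.594 of the number expected from base composition. Esam followed with 62 CpGs (0.403) and Eng with 45 (0.293), and the other 7 windows held 23 to 34. To show this contrast, the 150 bases directly before the annotated start are given for Kdr (chr5:76374484-76374633, minus strand), Tek (chr4:94405830-94405979, plus strand) and Emcn (chr3:137003881-137004030, plus strand) from the NCBIM37 (mm9) genome, 5′ to 3′, with CpGs in capitals.
Kdr: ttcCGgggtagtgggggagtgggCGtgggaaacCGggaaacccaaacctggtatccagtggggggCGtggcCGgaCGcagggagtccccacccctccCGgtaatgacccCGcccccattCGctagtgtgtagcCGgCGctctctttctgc
Tek: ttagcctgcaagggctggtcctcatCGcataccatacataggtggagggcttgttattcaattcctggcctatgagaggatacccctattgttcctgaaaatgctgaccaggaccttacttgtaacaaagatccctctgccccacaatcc
Emcn: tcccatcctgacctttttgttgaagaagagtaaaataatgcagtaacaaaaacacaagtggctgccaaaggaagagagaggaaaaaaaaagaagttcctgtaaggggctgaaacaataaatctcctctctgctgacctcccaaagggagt
These stretches held 11 CpGs in Kdr, 1 in Tek and 0 in Emcn. In RefSeq promoters of the GRCm38.p6 build (250 bases before to 50 after the start), which held 6 of the 10 genes, Kdr had 19 CpGs against a median of 7 over all 27025 promoters, and Emcn had 2. The letters GGGCGG, a GC box, searched on both strands, occurred in Kdr alone of the 6, and in 35.9% of all promoters. The motif of GATA factors, spelled AGATAAG, occurred in Tek and in 3.07% of all promoters. The motif of ETS factors, spelled CAGGAAG, occurred in Emcn and in 12.96% of all promoters. TATAAA occurred in none of the 6 and in 14.2% of all promoters. A match is a description of these letters only.

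All 10 genes were transcribed in E14.5 liver, over a wide range of levels. By wild-type RPKM, in which reads are scaled to exon length and library size, Lyve1 was highest at 33.3, followed by Eng at 16.8 and Cdh5 at 15.5, whose libraries overlapped. Pecam1 (7.37), Esam (6.65), Kdr (6.22) and Tie1 (5.93) formed a group in which each overlapped with the next. Stab2 (4.58) and Tek (3.88) came below these and overlapped with each other, and Emcn was lowest at 0.588. In this order the wild-type libraries of neighbours were fully apart between Lyve1 and Eng, Cdh5 and Pecam1, Tie1 and Stab2, and Tek and Emcn.

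**Figure D1:**
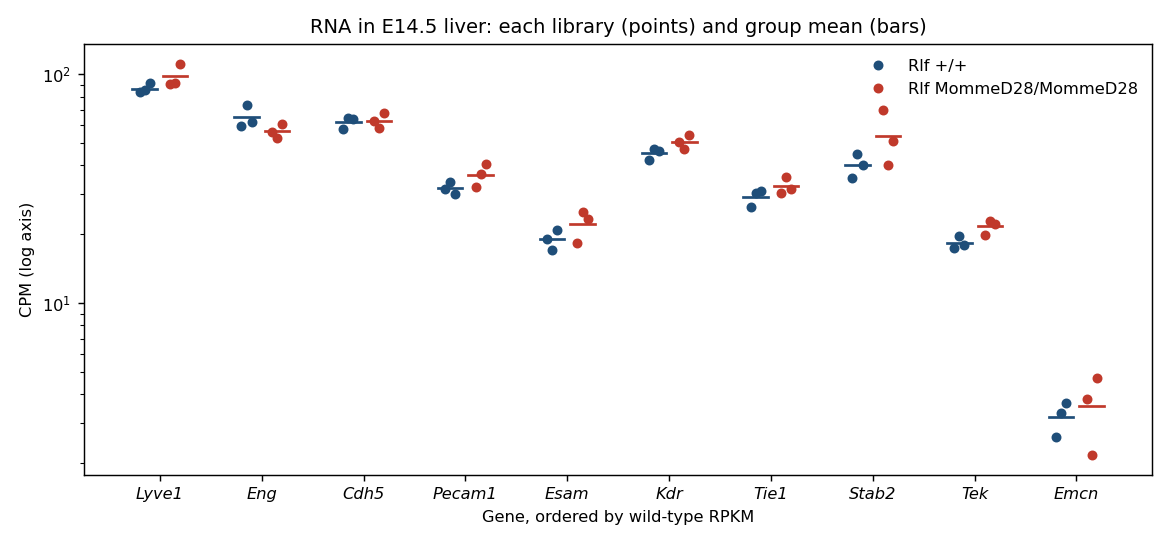
CPM (log axis) of the 10 genes in each of 3 wild-type and 3 mutant E14.5 livers (points), with group means (bars), the genes ordered by wild-type RPKM. Only Kdr and Tek have all 3 mutant points above all 3 wild-type points, and Emcn lies lowest in every library.

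The first RNA question was whether these genes differ between wild-type and mutant livers. Among the junction proteins, Cdh5 (VE-cadherin, which joins endothelial cells) had 57.4, 64.3 and 64.1 CPM in wild types and 62.7, 58.1 and 67.5 in mutants. Its log2 fold change was 0.02 ± 0.08 (SE), with an edgeR adjusted p of 0.943, and the groups overlapped throughout. Pecam1 (CD31, an adhesion molecule of endothelial contacts) had 31.7, 33.8 and 30.0 CPM in wild types and 32.1, 36.8 and 40.5 in mutants. The lowest mutant lay within the wild-type range, and the log2 difference was 0.20 ± 0.09 with an edgeR adjusted p of 0.348. Esam, an adhesion molecule of tight junctions, had 19.1, 17.1 and 20.9 CPM in wild types and 18.4, 25.03 and 23.3 in mutants (edgeR adjusted p = 0.426). Mutant replicate 1 again lay among the wild types.

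Among the receptors, Kdr (VEGF receptor 2) had 42.3, 47.0 and 46.4 CPM in wild types and 50.7, 47.4 and 54.4 in mutants. Tek (the angiopoietin receptor Tie2) had 17.4, 19.6 and 17.9 against 19.9, 22.9 and 22.2. For both, the mutant libraries all lay above the wild types, by a margin smaller than the spread within a group. The log2 differences were 0.17 ± 0.08 for Kdr and 0.25 ± 0.10 for Tek, and neither passed the test over all genes (edgeR adjusted p = 0.336 and 0.263). Tie1, the related receptor without a firmly established ligand of its own, had 26.4, 30.2 and 30.9 CPM in wild types and 30.3, 35.6 and 31.6 in mutants (edgeR adjusted p = 0.46), with overlap. Eng (endoglin, a co-receptor for BMP and TGF-beta ligands) was the 1 gene with a lower mean in mutants: 59.7, 73.1 and 61.9 CPM in wild types and 56.1, 52.7 and 60.7 in mutants. Its log2 difference was −0.20 ± 0.09 with an edgeR adjusted p of 0.307, and mutant replicate 3 lay above the lowest wild type.

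Among the genes of sinusoidal and lymphatic endothelium, Stab2 (a scavenger receptor that clears hyaluronan) had 35.2, 45.0 and 40.2 CPM in wild types and 69.5, 40.0 and 51.0 in mutants. The difference of 0.41 ± 0.16 on the log2 scale was the largest of the 10 and rested most on mutant replicate 1, and mutant replicate 2 lay within the wild types. Its edgeR adjusted p was 0.258, and 0.037 where genes with low counts were left in the test, which called 2.42% of genes. Lyve1, a hyaluronan receptor, had 83.8, 85.0 and 91.3 CPM in wild types and 91.0, 91.8 and 111.5 in mutants (log2 difference 0.18 ± 0.08, edgeR adjusted p = 0.329). Emcn, a sialomucin of capillary and venous endothelium, had 2.6, 3.3 and 3.6 against 3.8, 2.2 and 4.7 CPM, from 30 to 67 reads a library. At that depth its interval is wide (0.16 ± 0.26 on the log2 scale).

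None of the 10 genes was called at an adjusted p under 0.05, where 1.39% of the 14183 genes tested were called. Without adjustment, 5 of the 10 had p under 0.05, beside 14.6% of all genes, and 9 of 10 had a higher mean in mutants, beside 49.4% of all genes, with a median log2 difference of 0.17 against −0.00 over all genes. The genotypes did not overlap for 2 of the 10 genes (Kdr and Tek, both higher in mutants), beside 20.3% of all genes in either direction. Within pairs of the same replicate number, CPM was higher in the mutant in all 3 pairs for 5 of the 10 (Kdr, Tek, Pecam1, Lyve1 and Tie1), beside 20% of all genes, and lower in all 3 for 1 (Eng), beside 19.4%. The libraries did not contribute evenly: wild-type replicate 1 was lowest for 6 of the 10 genes and mutant replicate 3 highest for 5. Summed over the 10 genes, the wild types had 375.7, 418.4 and 407.4 CPM and the mutants 434.5, 412.6 and 467.3, which overlap. With the replicate number as a block, 460 genes in place of 197 were called over the whole table, and still none of the 10.

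Other endothelial genes were read from lists of names, in the fit without the replicate block, beside the 1.39% of all genes called and the 49.4% with a higher mean in mutants. Of 29 tested genes of VEGF, angiopoietin, Notch and BMP signalling, 0 were called and 25 had higher means in mutants (median log2 difference 0.15), with summed levels of 439 to 489 CPM in wild types and 527 to 546 in mutants. Vegfa, the ligand of Kdr, went from 41.3 ± 4.5 to 57.9 ± 8.8 CPM (SD, n = 3), a log2 difference of 0.48 that did not pass (edgeR adjusted p = 0.0557). Flt1, a second VEGF receptor, differed by 0.43 (edgeR adjusted p = 0.0843). Of 24 further pan-endothelial genes, 1 rose, Mmrn1, which is also made in platelets (26.5 ± 1.9 to 40.7 ± 5.9 CPM, edgeR adjusted p = 0.0143). Of 16 sinusoidal genes, 1 rose, the secreted nuclease Dnase1l3 (14.4 ± 0.5 to 21.5 ± 2.2 CPM, edgeR adjusted p = 0.0182). Of 14 endothelial transcription factors, 1 rose, Mef2c (31.7 ± 3.2 to 45.0 ± 3.2 CPM, edgeR adjusted p = 0.0159). Of the 4 lymphatic genes tested none was called. Means were higher in mutants for 18 of the 24 pan-endothelial, 11 of the 16 sinusoidal, 9 of the 14 transcription factor and 4 of the 4 lymphatic genes. The summed levels did not overlap for the pan-endothelial list (568 to 665 CPM in wild types, 685 to 739 in mutants) and the sinusoidal list (622 to 643 and 658 to 700), and overlapped for the transcription factors and the lymphatic genes.

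Lists of genes of other cell types were read in the same libraries and the same fit, beside the 1.39% of all genes called. Of 12 megakaryocyte genes, 2 rose (Pf4 by 0.40 and Itgb3 by 0.46 on the log2 scale, edgeR adjusted p = 0.0143 and 0.0122), all 12 had higher means in mutants, and their summed level was 732 to 791 CPM in wild types and 915 to 1018 in mutants. Of 13 neutrophil, mast cell and eosinophil genes, 7 fell, namely Prg2 (−1.27), Ngp (−0.93), Camp (−0.89), Ltf (−0.86), Elane (−0.76), S100a9 (−0.69) and S100a8 (−0.67 on the log2 scale), with edgeR adjusted p from 0.000431 to 0.0493, and their sum was 979 to 1411 against 791 to 907 CPM. Of 12 macrophage genes 1 fell, Cd5l (−1.19, edgeR adjusted p = 0.00187), and the sums were 1005 to 1043 and 913 to 934 CPM. None of 15 erythroid genes was called, 14 having lower means in mutants, and their sum spread from 35313 to 62845 CPM within the wild types alone. Of 16 hepatoblast genes 1 rose (Trf, transferrin, by 0.46, edgeR adjusted p = 0.0289), 13 had higher means in mutants, and their sum was 60037 to 71145 CPM in wild types and 73501 to 85436 in mutants, which did not overlap. None of 11 stem and progenitor genes (sums of 236 to 281 and 275 to 279 CPM) or 16 mesenchymal genes (1106 to 1364 and 1180 to 1661 CPM) was called. Means were higher in mutants for 9 of the 11 stem and progenitor and 12 of the 16 mesenchymal genes. The same held for 6 of the 12 macrophage genes and 1 of the 13 neutrophil, mast cell and eosinophil genes. The part of these shifts in the values of the 10 genes was not tested.

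Methylation around the start was high in E10.5 embryos and lower in livers for 8 of the 10 genes. In wild types, the windows of Pecam1, Tek, Cdh5, Tie1, Lyve1, Emcn, Stab2 and Eng had lower methylation in E14.5 liver by 24.6 to 63.6 percentage points, in the male and in the female E14.5 library alike against the male embryos, whereas those of Kdr and Esam were low in all 3 datasets. For Pecam1 the wild-type E10.5 libraries had 83.2% and 89.4%, the E14.5 livers 22.4% and 22.9% and the E18.5 livers 18.2% and 29.7%. For Tek they had 64.9% and 74.7%, then 17.7% and 17.5%, then 23.5% and 28.9%. In both genes the embryo libraries lay far above every liver library, and the differences between E14.5 liver and E10.5 embryo were −63.6 points (edgeR adjusted p = 8.53e-08) and −52.2 points (edgeR adjusted p = 1.83e-07). Per the study, erythroblasts and hepatoblasts together make up most cells of E14.5 liver. Which cells carry the lower methylation was not tested.

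Cdh5 had 81.0% and 80.0% in embryos, 37.0% and 45.7% in E14.5 livers and 56.2% and 48.2% in E18.5 livers. Tie1 had 82.9% and 86.9%, then 46.6% and 49.3%, then 49.1% and 48.0%. Eng, with the lowest embryo level of the 8, had 53.4% and 59.5%, then 32.3% and 31.4%, then 33.7% and 29.3%. These 3 windows fell by 39.1, 37.0 and 24.6 points from embryo to E14.5 liver (edgeR adjusted p = 1.48e-06, 5.31e-06 and 5.78e-05). Lyve1 had 81.1% and 82.6% in embryos, 47.2% and 48.7% in E14.5 livers and 59.9% and 62.0% in E18.5 livers. Stab2 had 74.3% and 76.8%, then 45.5% and 47.1%, then 49.9% and 51.5%, and Emcn had 74.9% and 75.7%, then 45.9% and 42.7%, then 41.1% and 44.3%. In these 3 the fall from embryo to E14.5 liver was 33.9, 29.2 and 31.0 points (edgeR adjusted p = 1.88e-06, 3.24e-06 and 4.35e-06), with no overlap.

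The Kdr window, by contrast, had 0.4% and 1.0% in embryos, 0.9% and 0.9% in E14.5 livers and 2.2% and 2.4% in E18.5 livers, over 82 CpGs. Esam had 13.95% and 10.8%, then 12.2% and 14.48%, then 13.8% and 16.6%. Neither passed the test between E10.5 embryo and E14.5 liver (0.1 points, edgeR adjusted p = 0.56, and 1.0 points, edgeR adjusted p = 0.63). With the replicate number as a block the Kdr difference, of the same size, passed (edgeR adjusted p = 0.0202), as did 54.8% of all windows. Falls of this kind were common: 39.5% of all 20291 windows were called lower in E14.5 liver, beside 8 of the 10, and 16.1% were called higher, beside 0 of the 10. The median over the 10 was −32.4 points against −0.48 over all windows. Among the 6453 windows with over 50% methylation in wild-type embryos, the median was −20.4 points and the quartiles lay at −26.2 and −14.6. Each of the 8 windows except Eng fell by more than the larger of these.

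**Figure D2:**
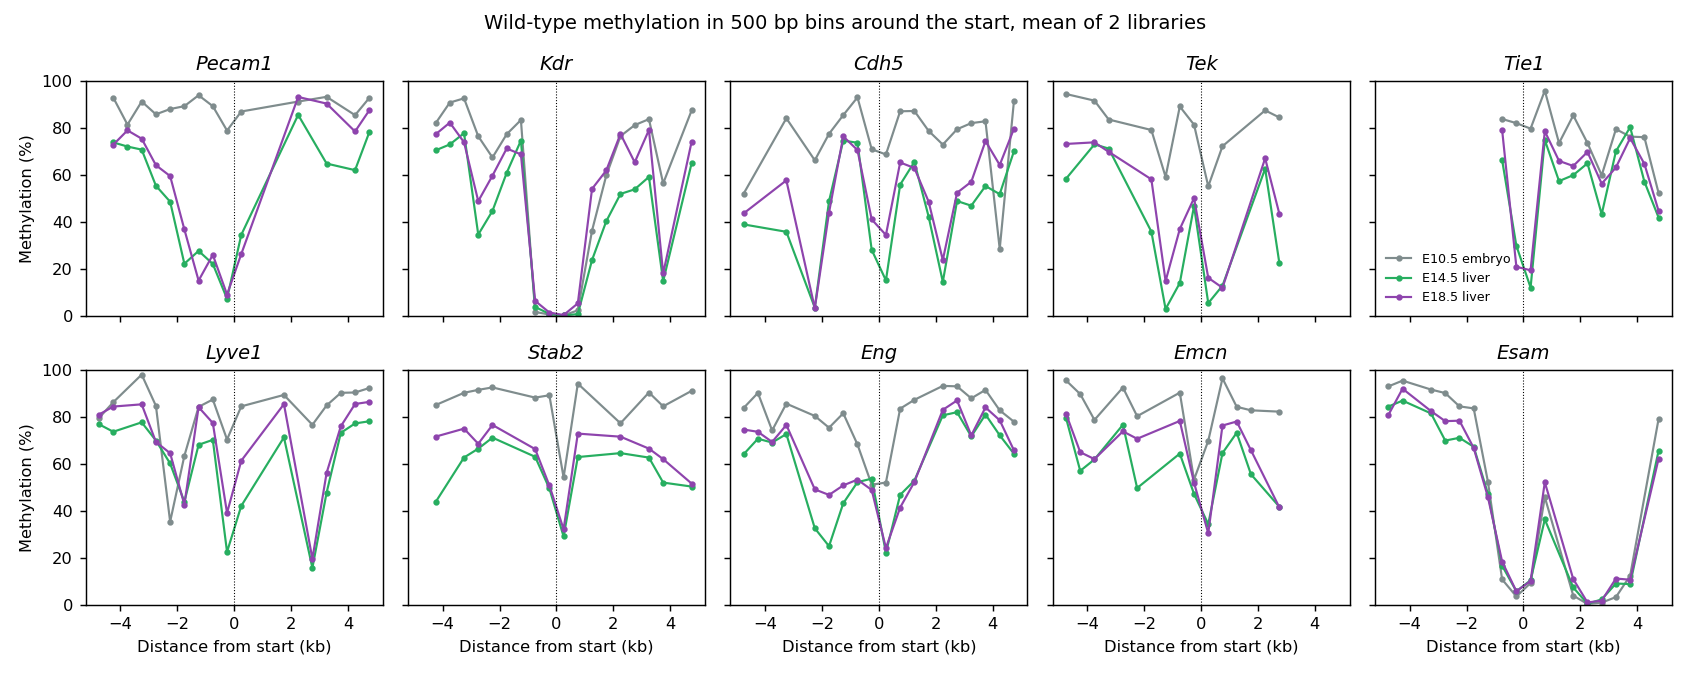
Wild-type methylation (%, mean of 2 libraries) in 500 bp bins from 5 kb before to 5 kb after the start of each gene, for E10.5 embryos (grey) and for livers at E14.5 (green) and E18.5 (purple). Grey lies above the liver lines near the start of most genes. In all 3 datasets the Kdr bins within 0.75 kb of the start are at most 6.31% and the bin 1.25 kb before it is at 68.8% or more.

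The stretches of low methylation in liver lay at different distances from the start. In Pecam1, the 500 bp bin centred 0.25 kb before the start went from 78.9% in wild-type embryos to 7.2% in E14.5 and 9.0% in E18.5 livers, over 6 CpGs. In Tek, the bin centred 0.25 kb after the start went from 55.1% to 5.4% and 16.1%, over 9 CpGs, and in Tie1 the same bin went from 79.7% to 12% and 19.4%, over 5 CpGs. In Cdh5 the lowest bin lay 2.25 kb before the start, outside the window, where 8 CpGs went from 66.2% to 3.4% and 3.2%. In Lyve1 the lowest bin lay 2.75 kb after the start, at 76.7%, 15.7% and 19.6% over 4 CpGs. Stab2 was least methylated in a 1 kb tile 17.3 kb into the gene (chr10:86453001-86454000), with 79.3% in embryos, 21.3% in E14.5 livers and 32.4% in E18.5 livers.

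Pecam1 has another annotated start 35234 bp downstream, and 5 of its 6 coding transcripts start there or further downstream. The window around it (16 CpGs) had 68.7% and 72.8% in wild-type embryos, 27.7% and 30.6% in E14.5 livers, and 43.2% and 51.4% in E18.5 livers. Both Pecam1 starts were thus less methylated in each liver library than in each embryo library.

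Between E14.5 and E18.5 wild-type livers none of the 10 windows was called, beside 0.232% of all windows, and their median difference was 1.65 points. Lyve1 (13.02 points, edgeR adjusted p = 0.099), Cdh5 (10.8, edgeR adjusted p = 0.151) and Tek (8.6, edgeR adjusted p = 0.139) had the largest differences. Both E18.5 libraries lay above both E14.5 libraries in 5 of the 10 windows (these 3, Stab2 and Kdr), beside 32.3% of all windows, and below in 0, beside 23.7%. With the replicate number as a block, 2 of the 10 were called, Kdr (1.43 points, edgeR adjusted p = 0.00463) and Lyve1 (edgeR adjusted p = 0.0376), beside 5.45% of all windows. Gene bodies, meaning the rest of each gene outside the window, were lower in E14.5 liver than in E10.5 embryo for 9 of the 10, as were 90.8% of all 18927 bodies. The median over the 10 was −17.1 points against −13.8 over all bodies, and Esam (−0.7 points, edgeR adjusted p = 0.685) was the one not called. From E14.5 to E18.5 liver, 6 of the 10 bodies rose, beside 50.7% of all bodies: Kdr by 7.7, Tek by 6.5, Emcn by 6.2, Lyve1 by 6.2, Stab2 by 5.7 and Cdh5 by 5.1 points, with edgeR adjusted p from 0.000119 to 0.00896. This count depended on single libraries, being 2 without wild-type E14.5 replicate 1 and 1 without wild-type E18.5 replicate 2, beside 23.1% and 15.2% of all bodies.

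Set beside expression, 9 of the 10 promoters were more methylated than most expressed genes. Of 12762 windows of expressed coding genes, 73.9% were under 10% methylated in wild-type E14.5 liver and the median was 3.64%. Tie1 and Lyve1 lay at percentile 90.5 of these windows with 47.9% methylation each, although Lyve1 lay at percentile 84.9 by RPKM. Stab2, Emcn, Cdh5, Eng, Pecam1 and Tek lay at percentiles 82.2 to 90.1, Esam at 78.7 and Kdr at 22.4. These windows used from 15 CpGs (Stab2) to 46 (Esam), and 82 in Kdr, beside a median of 57 over all windows. No comparison with windows of like CpG number was made. Order by methylation and order by RNA were not the same among the 10: Emcn, with the lowest RPKM, and Lyve1, with the highest, had 44.3% and 47.9%.

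**Figure D3:**
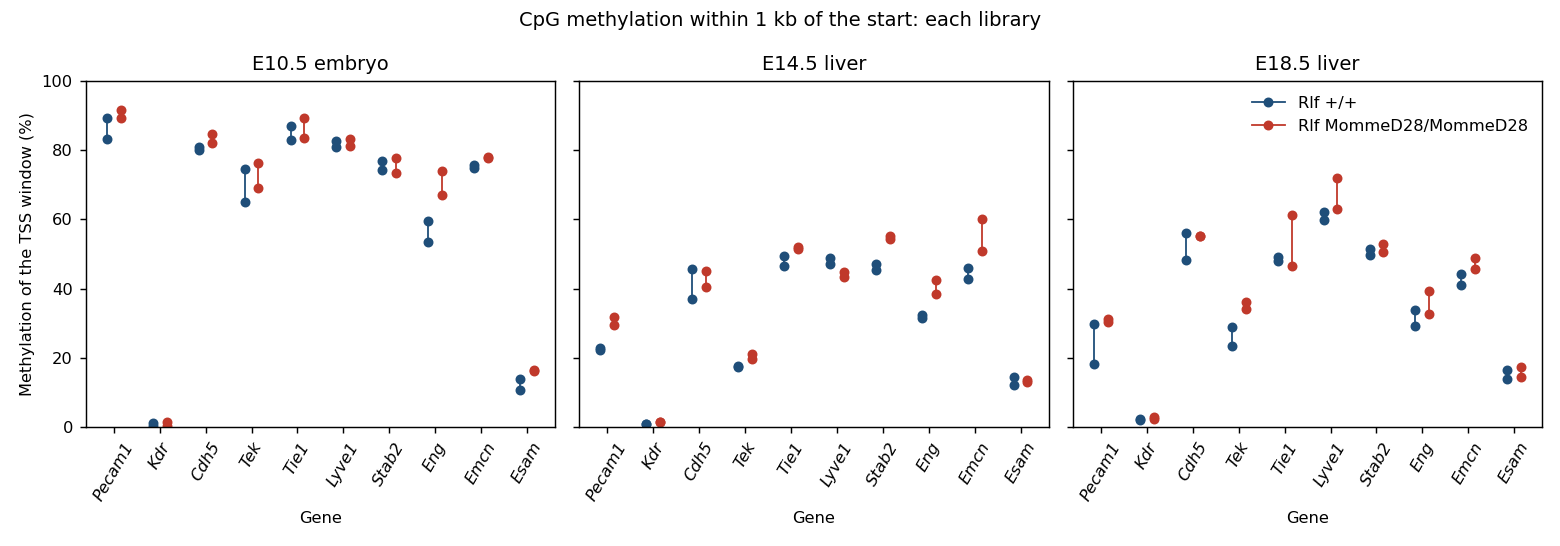
Methylation (%) of the window within 1 kb of the start, in each wild-type (blue) and mutant (red) library, for E10.5 embryos and for livers at E14.5 and E18.5. Points of one genotype are joined. Genotypes lie close together against the distance between the embryo and liver panels, and Eng at E10.5 shows the widest gap.

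The next question was whether mutants differ from wild types at these promoters. None of the 10 windows was called in any dataset, where 0.798% of all windows were called at E10.5, 0.375% at E14.5 and 0.335% at E18.5. The medians over the 10 were 2.83, 3.28 and 4.57 points higher in mutants, beside 0.36, 0.42 and 0.23 points over all windows, many of which are unmethylated islands. Both mutants lay above both wild types in 5, 7 and 4 of the 10 windows, beside 34.2%, 36.3% and 27.9% of all windows. They lay below in 0, 1 (Lyve1) and 0 of the 10, beside 7.79%, 8.45% and 10.7%. With 2 against 2 samples, an exact two-sided permutation test of a single window cannot give p below 0.33.

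Eng had the largest difference at E10.5. Its mutants had 66.97% and 74.0% against 53.4% and 59.5% in wild types, 42.4% and 38.4% against 32.3% and 31.4% at E14.5, and 39.4% and 32.6% against 33.7% and 29.3% at E18.5. Both mutants lay above both wild types at E10.5 and E14.5, and overlapped at E18.5. The differences were 14.1, 8.5 and 4.5 points with edgeR adjusted p of 0.0861, 0.396 and 0.734. Its E10.5 call depended on the model: edgeR adjusted p was 0.00378 with the replicate number as a block, where 3.17% of all windows were called.

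For the upstream start of Pecam1 the mutants had 89.5% and 91.7% at E10.5, 29.4% and 31.7% at E14.5 and 30.2% and 31.3% at E18.5. They lay above both wild types in each dataset, by 4.3, 7.9 and 6.8 points (edgeR adjusted p = 0.46, 0.436 and 0.623). At its downstream start, which was not tested, the mutants had 81.4% and 76.4%, then 30.8% and 33.7%, then 56.4% and 44.7%. There they lay above both wild types at E10.5 and E14.5 and overlapped with them at E18.5. For Emcn at E14.5 the mutants had 60.2% and 50.8%, and for Stab2 55.3% and 54.4%. Both lay above their wild types, by 11.2 and 8.5 points, without passing (edgeR adjusted p = 0.221 and 0.306). Tek at E18.5 had 36.3% and 34.3% in mutants, 9.0 points above wild type (edgeR adjusted p = 0.456). Lyve1 at E14.5 had 44.9% and 43.3%, 3.9 points below wild type, but at E18.5 it had 72.0% and 62.9%, 6.5 points above. Its E18.5 difference came mostly from mutant replicate 1, the library with high methylation over all CpGs, as did that of Tie1 (61.4% in mutant replicate 1 and 46.5% in mutant replicate 2). Without that library the median E18.5 difference over the 10 windows was 1.53 points in place of 4.57, with Tie1 at −2.09 and Lyve1 at 1.97 points, whereas Tek was at 8.04, Pecam1 at 7.38 and Emcn at 6.16 points. The Kdr mutants stayed between 0.3% and 3.0%, and the Esam mutants between 12.9% and 17.5%, in every dataset.

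No gene body of the 10 was called by genotype in the fit over all 12 libraries, where 2.15% of all bodies were called at E10.5, 1.8% at E14.5 and 0.793% at E18.5. Both mutants lay above both wild types in 8, 6 and 8 of the 10, beside 51.8%, 43% and 37.3% of all bodies. The medians were 2.39, 2.26 and 3.05 points beside 1.06, 1.58 and 1.90 over all bodies. Methylation over all CpGs was higher in both mutants at E10.5 and E14.5 as well, and its part in these medians was not tested. The largest was Esam at E10.5, where wild types had 28.1% and 29.6% and mutants 32.4% and 35.2% (5.0 points, edgeR adjusted p = 0.379). In a separate fit of the 4 E10.5 libraries, however, 4 of the 10 bodies were called, beside 12.7% of all bodies: Pecam1, Eng, Kdr and Tie1 (edgeR adjusted p = 0.00797, 0.0176, 0.0421 and 0.0472), all higher in mutants. Without E18.5 mutant replicate 1, the E18.5 median over the 10 bodies was 1.03 points in place of 3.05, and none was called. Without mutant replicate 2, the count of bodies called went from 0 to 7 of the 10, beside 23% of all bodies in place of 0.793%, so that this result depends on which mutant library is kept. At E14.5 it went from 0 to 1 without wild-type replicate 2, beside 11.6% of all bodies. In the test of whether the genotype difference changes between datasets, none of the 10 was called. Over all genes this test called 0% of windows and, of bodies, 0.0528% between E10.5 and E14.5 and 0.00528% between E14.5 and E18.5.

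**Figure D4:**
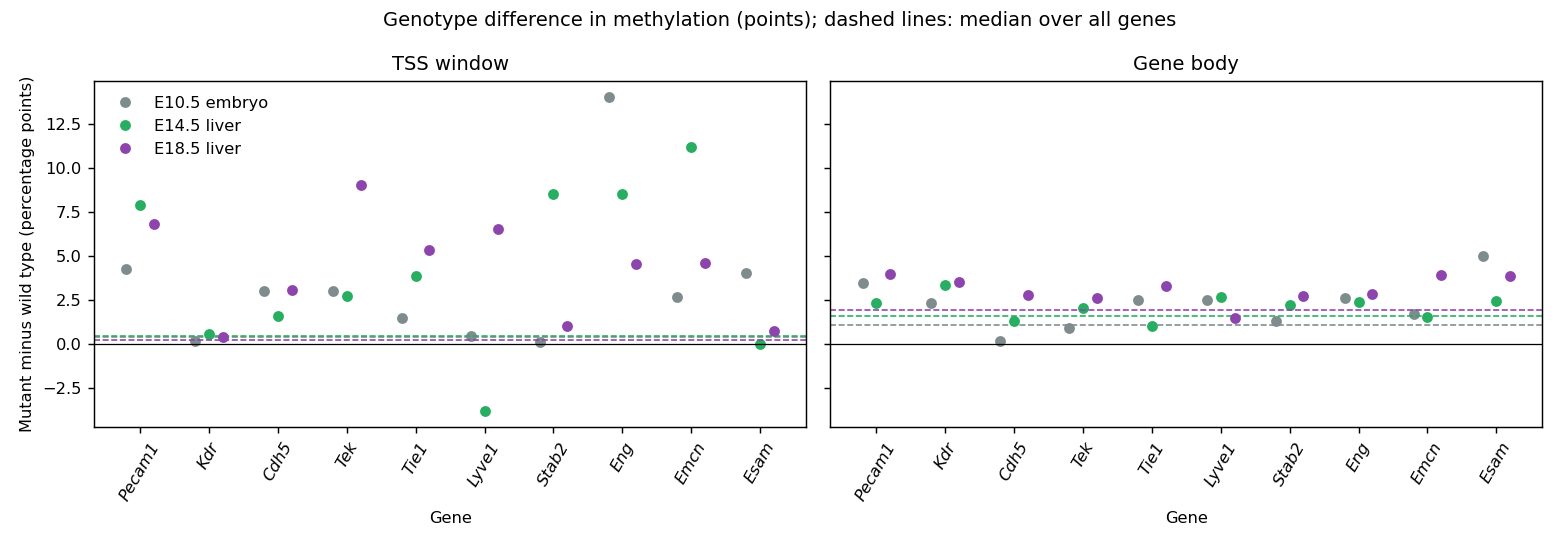
Mutant minus wild-type methylation (percentage points) of the 10 TSS windows and gene bodies in E10.5 embryos (grey) and in livers at E14.5 (green) and E18.5 (purple); dashed lines give the median over all genes. Most points lie above 0, those of bodies within 5.0 points of it, and the Eng window at E10.5 lies highest at 14.1.

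Averages over a whole gene can hide short stretches, so the loci, with 10 kb on either side, were also read as 335 tiles of 1 kb. A tile counted as called when the genotypes differed by more than 15 points with an adjusted p under 0.05. Counts of CpGs within a tile, given below, describe the same reads and are no separate support. The 10 loci held 2 called tiles at E10.5, 0 at E14.5 and 1 at E18.5 (0.597%, 0% and 0.299% of 335), beside 0.313%, 0.159% and 0.168% of all 581510 tiles. All 3 were more methylated in mutants and lay in Eng and Pecam1. At adjusted p under 0.05 alone there were 5, 2 and 2 of the 335 tiles, beside 0.572%, 0.399% and 0.265% of all tiles. Both mutants lay above both wild types in 115, 129 and 135 of the 335 tiles, beside 31.4%, 34.0% and 31.2% of all tiles.

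Eng held 2 of the called tiles, side by side at its start. The first (chr2:32502001-32503000, 34 CpGs) covers the start, the first exon and part of the first intron, as well as an exon of the neighbouring gene Ak1. At E10.5 its wild types had 49.9% and 51.9% and its mutants 62.8% and 71.9%, a difference of 16.5 points (edgeR adjusted p = 0.0248), and 30 of 34 CpGs were higher in mutants. At E14.5 wild types had 23.4% and 21.7% and mutants 31.5% and 26.5%, and at E18.5 wild types had 26.1% and 21.9% and mutants 29.2% and 24.0%. The gap between genotypes was thus 6.4 points in E14.5 and 2.6 points in E18.5 livers, and did not pass in either.

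The second tile (chr2:32503001-32504000, 10 CpGs) lies in the first intron. At E18.5 wild types had 42.7% and 58.9% and mutants 74.5% and 73.6%, a difference of 23.3 points (edgeR adjusted p = 0.00454), with all 10 CpGs higher in mutants. At E14.5 the values were 54.7% and 50.8% against 67.4% and 66.0% (13.9 points, edgeR adjusted p = 0.0667), and at E10.5 86.1% and 87.1% against 94.97% and 94.1% (7.9 points). Both mutants lay above both wild types in all 3 datasets. Another Eng tile (chr2:32510001-32511000, 17 CpGs), 8.4 kb into the gene and intronic, had 47.5% and 48.9% in wild types and 61.7% and 62.8% in mutants at E14.5. Its 14.1 points (edgeR adjusted p = 0.0489) lay under the limit of 15, and at E18.5 it had 40.5% and 33.7% against 57.2% and 51.5% (17.3 points, edgeR adjusted p = 0.0966).

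The stretches around the CpGs with the widest gap outside exons are shown for Eng because 3 of its tiles stand in this result: chr2:32502662-32502813 from the start tile, chr2:32503011-32503162 from the tile after it, and chr2:32510472-32510623 from the tile deeper in the gene, all plus strand of NCBIM37 (mm9), with CpGs in capitals.
Eng, start tile: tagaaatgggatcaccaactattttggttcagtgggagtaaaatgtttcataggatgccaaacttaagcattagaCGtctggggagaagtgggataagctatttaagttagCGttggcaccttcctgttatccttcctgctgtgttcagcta
Eng, next tile: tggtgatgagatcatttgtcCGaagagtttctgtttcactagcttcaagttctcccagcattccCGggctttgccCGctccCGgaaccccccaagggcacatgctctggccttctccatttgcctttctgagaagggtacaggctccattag
Eng, deeper tile: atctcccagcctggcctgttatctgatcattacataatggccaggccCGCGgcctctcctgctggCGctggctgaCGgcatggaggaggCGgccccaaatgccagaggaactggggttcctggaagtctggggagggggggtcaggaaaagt
In the stretch of the next tile the CpG at position 32503086 of chromosome 2 had 53.5% in wild-type and 91.1% in mutant E18.5 livers. In that of the deeper tile, the CpG at position 32510547 had 32.3% and 63.3% at E14.5.

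**Figure D5:**
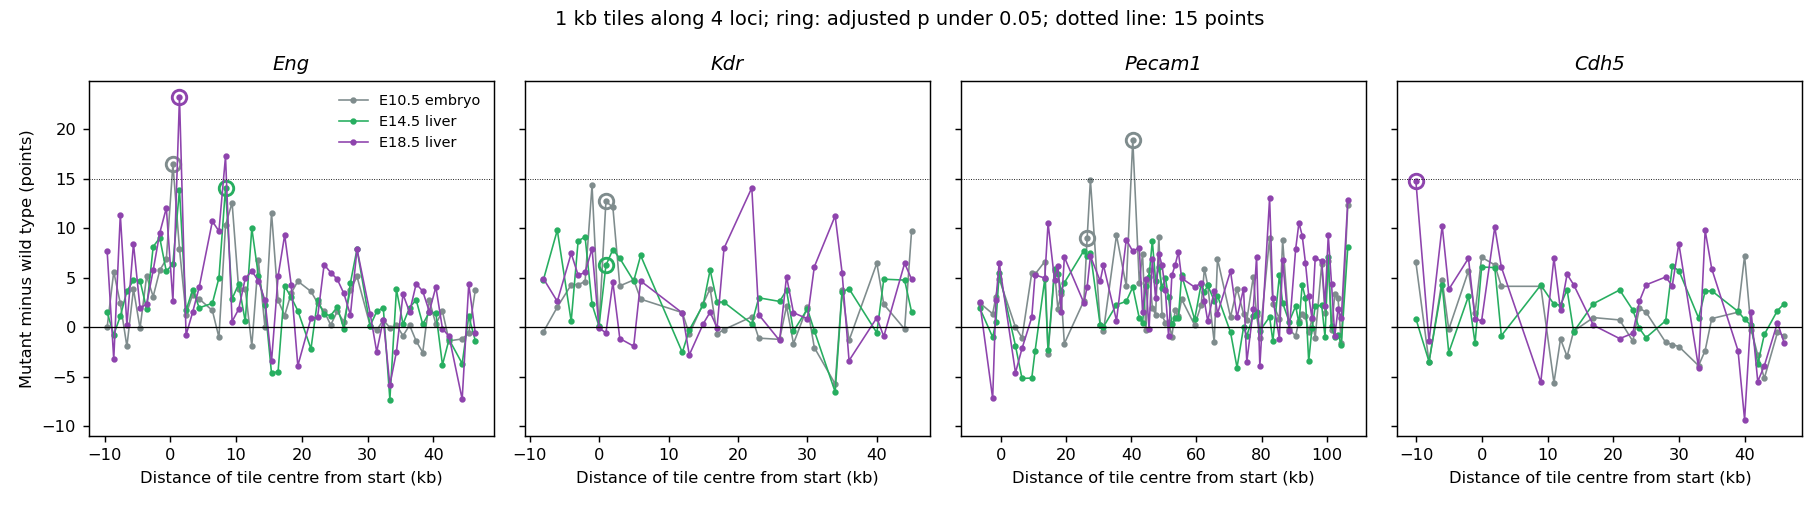
Mutant minus wild-type methylation (percentage points) of 1 kb tiles along the Eng, Kdr, Pecam1 and Cdh5 loci against the distance of the tile from the start (kb), in the 3 datasets. Rings mark tiles with an adjusted p under 0.05 and the dotted line is at 15 points: ringed tiles lie at the start of Eng and 8.4 kb into it, at the island edge of Kdr, within Pecam1, and 10.02 kb before Cdh5.

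The Pecam1 tile (chr11:106571001-106572000, 20 CpGs, intronic) had 40.2% and 50.8% in wild-type and 62.3% and 66.6% in mutant embryos, a difference of 18.9 points (edgeR adjusted p = 0.0113), and 19 of 20 CpGs were higher in mutants. In E14.5 livers it had 58.9% and 56.6% against 61.4% and 62.1%, and in E18.5 livers 59.9% and 63.9% against 70.4% and 68.7%. Unlike the starts of this gene, the tile was thus no less methylated in wild-type livers than in wild-type embryos. A further Pecam1 tile (chr11:106585001-106586000) differed by 9.1 points at E10.5 (edgeR adjusted p = 0.011), with all 21 CpGs higher in mutants.

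In Kdr the island core stayed unmethylated and the tiles at its edges did not. The tile over the start (52 CpGs) had 0.1% to 0.9% in all 12 libraries. The next tile (chr5:76373001-76374000, 29 CpGs, first intron) had 10.2% and 12.3% in wild-type and 20.4% and 27.5% in mutant embryos, and 9.4% and 7.4% against 16.4% and 12.8% in E14.5 livers. Both mutants lay above both wild types in these datasets, by 12.7 and 6.3 points (edgeR adjusted p = 0.00651 and 0.048), both under the limit of 15 points. Of its 29 CpGs, 10 were higher in mutants at E10.5 and 19 at E14.5, with median differences per CpG of 0 and 1.28 points. In E18.5 livers the values were 22.0% and 21.8% against 22.3% and 20.5%, with no gap. In Cdh5 a tile 10.02 kb before the start, in no annotated gene (chr8:106615001-106616000, 17 CpGs), had 13.8% and 17.1% in wild-type and 34.6% and 25.8% in mutant E18.5 livers (14.8 points, edgeR adjusted p = 0.0103). At E14.5 it had 16.8% and 20.3% against 19.3% and 19.5%, which overlap. At E10.5 it had 30.7% and 40.3% against 41.3% and 42.8% (6.6 points, edgeR adjusted p = 0.549). An Esam tile differed by 4.1 points at E10.5 (edgeR adjusted p = 0.0439), with 7 of 18 CpGs higher in mutants. No tile of Tek, Tie1, Lyve1, Stab2 or Emcn passed in any dataset.

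Around the CpG with the widest gap, the Pecam1 tile (chr11:106571082-106571233, minus strand), the Kdr island edge (chr5:76373045-76373196, minus strand) and the tile before Cdh5 (chr8:106615330-106615481, plus strand) read as follows in NCBIM37 (mm9), with CpGs in capitals. They are shown because these tiles had the widest gaps among those outside Eng with an adjusted p under 0.05.
Pecam1: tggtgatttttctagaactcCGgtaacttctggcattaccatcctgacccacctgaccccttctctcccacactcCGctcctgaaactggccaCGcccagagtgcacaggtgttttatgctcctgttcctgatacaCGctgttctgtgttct
Kdr, island edge: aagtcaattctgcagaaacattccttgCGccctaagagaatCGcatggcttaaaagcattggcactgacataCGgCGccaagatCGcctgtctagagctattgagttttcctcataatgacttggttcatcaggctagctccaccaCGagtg
Cdh5, upstream: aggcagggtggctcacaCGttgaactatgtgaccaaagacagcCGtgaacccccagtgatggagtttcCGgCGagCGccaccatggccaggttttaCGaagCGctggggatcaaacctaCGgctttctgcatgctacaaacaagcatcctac
The 3 stretches held 4, 6 and 8 CpGs. The CpG at the centre had 26.3% in wild-type and 66.9% in mutant embryos in Pecam1, 32.2% and 63.6% in embryos in Kdr, and 10.48% and 32.1% in E18.5 livers before Cdh5.

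The tile counts depended on single libraries. At E10.5 no tile was called without wild-type replicate 1, in place of 2, beside 0.133% of all tiles. At E14.5, 1 was called without either mutant library, in place of 0, beside 0.142% and 0.185%. At E18.5, 8 were called without mutant replicate 2, 1 without mutant replicate 1 and none without wild-type replicate 1, in place of 1, beside 0.713%, 0.182% and 0.0712% of all tiles.

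Further endothelial genes were read the same way. Of the TSS windows of VEGF, angiopoietin, Notch and BMP signalling genes (29 tested), endothelial transcription factors (17), further pan-endothelial genes (25), sinusoidal genes (15) and lymphatic genes (4), 1 was called by genotype, that of Pdpn (podoplanin, a membrane glycoprotein of lymphatic endothelium) at E10.5. Over all windows, 0.798% were called at E10.5. The Pdpn window had 1.6% ± 0.02 in wild-type and 6.31% ± 1.13 in mutant embryos (SD, n = 2, edgeR adjusted p = 0.00753). Of the 91 gene bodies of these lists, 4 were called at E10.5, 6 at E14.5 and 2 at E18.5, beside the 2.15%, 1.8% and 0.793% of all bodies given above, and each was higher in mutants. Aplnr, the apelin receptor of sprouting endothelium, rose in all 3 datasets, by 13, 8.4 and 13.7 points (edgeR adjusted p = 0.0134, 0.000798 and 0.00199). Sox13 rose at E10.5 and E14.5, by 6.2 and 5.1 points (edgeR adjusted p = 0.0303 and 0.0296). The others were called in 1 dataset each: Rasip1 (7.5 points) and Gpr182 (8.4) at E10.5, Clec14a (9.1), Cd93 (7.6), Sox18 (6.2) and Maf (5.4) at E14.5, and Calcrl (7.3) at E18.5, with edgeR adjusted p from 0.000497 to 0.0361. Whether these differences change between datasets is not shown by the calls. In the lists of other cell types no window was called by genotype, and the bodies of Dlk1 (18.04 points), Prtn3 (9.1), C1qa (9.1) and Slc4a1 (5.2) at E10.5 and of Dlk1 (8.1) at E14.5 were called higher in mutants. Their lists held 17, 12, 13 and 10 tested bodies, beside the 2.15% and 1.8% of all bodies called at E10.5 and E14.5.

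Between wild-type E10.5 embryo and E14.5 liver, where 39.5% of all windows were called lower and 16.1% higher, the lists differed in their counts. Of the sinusoidal windows 10 of 15 fell and 2 rose, of the pan-endothelial 14 of 25 fell and 4 rose, of the signalling genes 9 of 29 fell and 6 rose, of the transcription factors 2 of 17 fell and 7 rose, and of the lymphatic 0 of 4 fell and 3 rose. Among other cell types, 13 of 13 windows of neutrophil, mast cell and eosinophil genes fell, as did 12 of 13 macrophage, 10 of 11 megakaryocyte and 12 of 14 erythroid windows, with 0 rising in these lists. Of the hepatoblast windows 13 of 17 fell and 2 rose, of the stem and progenitor windows 6 of 11 fell and 3 rose, and of the mesenchymal windows 3 of 15 fell and 7 rose. Some genes stand in more than 1 list, here and in RNA. Mrc1 is in the sinusoidal and macrophage lists, Cd34 in the pan-endothelial and stem lists, and Reln in the lymphatic and mesenchymal lists.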

How the data were processed

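Whole genome bisulphite sequencing of 12 samples and RNA-seq of 6 samples were analysed; the H3K4me1 ChIP-seq samples were not analysed here. Per the labels and the study's methods, the authors mapped bisulphite reads to mm9, with known FVB substitutions inserted, using Bismark and Bowtie2, removed duplicates and merged strands. They deposited counts of unconverted and converted reads per CpG together with a methylation percent, which was not used. For RNA, the authors deposited raw counts per gene (TopHat and HTSeq, unstranded, so overlapping genes on opposite strands cannot be told apart). An exon of Ak1, whatever its strand, lies in the start tile of Eng, and its part in the Eng counts was not tested. Expression was tested with edgeR 4.0.16 (quasi-likelihood, TMM scaling, filterByExpr with a minimum count of 10, R 4.3.3). Of 37991 gene IDs, 37205 matched the GENCODE annotation of mm9, from which starts, bodies and lengths were taken.

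Methylation was summed over the 13032417 CpGs that had 6 or more reads in each of the 12 libraries. Windows and bodies needed 4 such CpGs and tiles 8. Unconverted and converted counts were tested with edgeR, with 1 intercept per library and 1 methylation level per group, over 12 libraries for windows and bodies and within the 4 libraries of a dataset for tiles. All adjusted p-values are Benjamini-Hochberg values over the whole table. A regional percent is the share of unconverted reads, which gives CpGs with more reads more weight; scripts were tested on simulated data. Per the study's text the E14.5 WGBS livers came from littermates; litters of the other samples are not given in the sources used here. The study calls the E14.5 WGBS and RNA-seq samples biological replicates. The p-values measure the spread between samples, in which differences between animals and technical ones are mixed. For windows and bodies, 1 estimate of this spread was shared by all 12 libraries.

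Deviations of RNA-seq samples from their group means were correlated between the genotypes within each replicate number (r = 0.155, 0.220 and 0.426 over 14183 genes). Between male libraries of unlike number r was 0.0778 and 0.0155. The highest value is that of the only female pair, so pairing and shared sex cannot be told apart. The main RNA test used genotype only, and the numbers served as pairs in the replicate block and in the counts within pairs. The genes named are the 10 listed, Rlf, the genes of each further list called by genotype (for lists with no call the rule also took the 3 genes with the highest mean CPM, which are not printed), the tile with the largest difference or lowest wild-type E14.5 level per locus, and Vegfa, Flt1 and the tiles at adjusted p under 0.05, chosen after their values were seen. The 10 genes and all lists were chosen with earlier results of these data known. Alternatives for RNA were another normalisation in edgeR (RLE), sex as a covariate and a separate test with DESeq2 1.42.0. Further ones were other filters, windows and thresholds, a replicate block and leaving out each sample.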

Additional observations from a re-analysis of the deposited data

How the results depend on the processing

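The 10 genes kept 0 calls in RNA under all repeats but one: with no filter on low counts 1 gene (Stab2) was called and 532 genes over the whole table, where 197 were called as reported. The replicate block, which pairs samples by number, gave 460 genes and 0 of the 10. Leaving out 1 sample gave 66 to 224 genes and 0 to 0 of the 10. With DESeq2 the adjusted p of the 10 ran from 0.479 to 0.990.

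In WGBS the correlation of deviations within replicate numbers was 0.0621 at E10.5, 0.406 at E14.5, where the number also goes with sex, and −0.0436 at E18.5. It was not above 0.1 in each dataset, so the numbers were not taken as a pairing. With the replicate block, 644, 367 and 213 TSS windows were called by genotype at E10.5, E14.5 and E18.5 (162, 76 and 68 as reported), of which 1 of the 10 at E10.5 (Eng), and 1106 between E18.5 and E14.5 livers (47), of which 2 of the 10 (Kdr and Lyve1), and the Kdr window was called between E14.5 liver and E10.5 embryo. The block gave 2 and 1 windows and 4 bodies where the genotype difference differed between datasets. The block fit of tiles at E10.5 could not be fitted and was not run. Windows of 500 bp on either side, tried together with bodies that include the start, gave 51, 18 and 17 by genotype and 15 between livers, 85 bodies by genotype at E18.5, 5826 bodies between livers and 0 and 0 bodies for the differences between datasets. CpGs with at least 1 read gave 42 windows at E14.5 and 0 bodies for the last. A difference above 10 points gave 81, 35 and 41 windows, 6185 and 31 between stages, 140, 69 and 85 bodies, 526 bodies between livers (0 of the 10) and 6 for the difference between datasets. A dispersion of 0, chosen after seeing the data, gave 264 and 503 windows (1 of the 10 at E10.5, Eng, adjusted p = 0.04995) and 228 between livers. Separate fits per dataset gave 7 windows at E14.5 and 8 between livers, 2412 (4 of the 10), 208 and 77 bodies. For tiles, above 20 points gave 0 at E10.5 and above 10 points 1 at E14.5 and 2 at E18.5. The cause of these moves was not tested.

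Leaving out 1 sample gave 8 to 150, 6 to 88 and 0 to 77 windows by genotype, 9410 to 11345 and 6 to 393 by stage, 101 to 688, 165 to 2204 and 52 to 4354 bodies by genotype, 17231 to 17936 and 2897 to 12148 by stage, and 3 to 21 and 0 to 21 bodies for the differences between datasets. Of the 10, it gave 8 to 8 windows and 9 to 9 bodies lower in E14.5 liver, 0 to 1 and 0 to 7 bodies by genotype at E14.5 and E18.5, 1 to 9 bodies between livers, and 0 to 3, 0 to 1 and 0 to 8 tiles.

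Small differences changed sign. Without 1 sample at a time the ranges were, in points unless a log2 difference is named, for RNA log2 difference, Cdh5 −0.0376 to 0.0714 and Emcn −0.107 to 0.417, for TSS windows, mutant minus wild type at E10.5, Kdr −0.381 to 0.667, Tek −1.87 to 7.86, Tie1 −1.46 to 4.34, Lyve1 −0.483 to 1.41 and Stab2 −2.04 to 2.22, for TSS windows, mutant minus wild type at E14.5, Cdh5 −2.78 to 5.88 and Esam −1.15 to 1.14, for TSS windows, mutant minus wild type at E18.5, Cdh5 −0.931 to 7.09, Tie1 −2.09 to 12.8, Stab2 −0.104 to 2.11 and Esam −0.790 to 2.28, for TSS windows, E14.5 liver minus E10.5 embryo, Kdr −0.171 to 0.466 and Esam −0.619 to 2.54, for TSS windows, E18.5 minus E14.5 liver, Pecam1 −4.51 to 7.03, Tie1 −0.746 to 1.98, Eng −2.56 to 1.85 and Emcn −3.23 to 0.0304, for bodies, mutant minus wild type at E10.5, Cdh5 −0.144 to 0.437, for bodies, mutant minus wild type at E14.5, Cdh5 −1.0 to 3.64, Tie1 −0.587 to 2.61 and Emcn −0.783 to 3.86, for bodies, mutant minus wild type at E18.5, Lyve1 −1.66 to 4.55, for bodies, E14.5 liver minus E10.5 embryo, Esam −2.84 to 1.40, for bodies, E18.5 minus E14.5 liver, Esam −1.81 to 2.42. With the setting "TSS 500 bp window, body with TSS window" the values were Lyve1 TSS window −0.832 (mutant minus wild type at E10.5), Stab2 TSS window −0.962 (mutant minus wild type at E10.5), Esam TSS window 0.560 (mutant minus wild type at E14.5), Kdr TSS window −0.0600 (mutant minus wild type at E18.5), Pecam1 TSS window −2.37 (E18.5 minus E14.5 liver), Tie1 TSS window −1.53 (E18.5 minus E14.5 liver), Eng TSS window 0.579 (E18.5 minus E14.5 liver). With the setting "at least 10 reads per CpG" the values were Cdh5 TSS window −0.571 (mutant minus wild type at E14.5), Stab2 TSS window −0.0273 (mutant minus wild type at E18.5), Eng TSS window 0.70 (E18.5 minus E14.5 liver), Cdh5 gene body −0.00386 (mutant minus wild type at E10.5), Esam gene body 0.422 (E14.5 liver minus E10.5 embryo), Esam gene body −0.381 (E18.5 minus E14.5 liver). With the setting "at least 1 read per CpG" the values were Pecam1 TSS window −2.71 (E18.5 minus E14.5 liver), Tie1 TSS window −1.31 (E18.5 minus E14.5 liver), Esam TSS window −0.250 (E18.5 minus E14.5 liver). 

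Over the repeats, 106 of 110 RNA values of the 10 genes kept their direction and their side of the threshold. For windows 945 of 1000 values and for bodies 953 of 1000 counted as unchanged. These counts include a repeat without a test, in which the percent was averaged over CpGs. That repeat counted as unchanged where its difference lay within the larger group SD of the reported one. Depth limits Emcn most in RNA. In WGBS, 2 samples per group limit every comparison. Between E10.5 embryo and E14.5 liver, stage, tissue, depth and in part sex differ together. E18.5 livers differ from the embryos in stage, tissue and sex. Between E14.5 and E18.5 liver, stage, depth, sex and cell make-up differ together.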
